A study of Mus musculus with 12 samples.

Results

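Immediate-early genes are switched on within minutes of a stimulus, from factors already present in the cell, and their transcripts are short-lived. Growth factors, cytokines and cell stress act through MAP kinases on serum response factor, its ternary complex partners and CREB, which bind the promoters of these genes. In liver the genes are known to respond to partial resection, injury and the handling of tissue before RNA is fixed, so they are often read as a sign of tissue stress. The 10 genes described here encode transcription factors (Fos, Fosb, Jun, Junb, Atf3, Egr1 and Nr4a1), early response proteins (Ier2 and Ier3) and an RNA-binding protein that speeds the decay of cytokine transcripts (Zfp36). They were chosen by gene symbol from the 14944 genes listed in any of the 4 deposited tables, and all 10 were found. Of the 10, 9 were listed in every table, passed the filter on low counts and were tested among 12909 genes. Fosb was not listed in the table of labelled knockout mice without DEN, and was not tested.

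The libraries came from the livers of 12 male C57BL/6 mice, each group holding 3 independent mice. The groups were labelled Otud3 knockout with DEN, wild type with DEN, labelled knockout without DEN, and wild type without DEN. Otud3 encodes a deubiquitinase, and DEN (diethylnitrosamine) is a carcinogen that hepatocytes activate. Mice with DEN were injected intraperitoneally at 15 days of age with 25 mg/kg and euthanized 30 weeks later. The labels do not say how old the mice without DEN were or whether they had a sham injection, so DEN, age and injection cannot be told apart. The labels give neither how long tissue waited before freezing nor whether a piece held tumour, and in bulk tissue fewer cells of a type and less RNA per cell cannot be told apart.

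Library totals were 29668861 to 31111765 counts. Otud3 averaged 11.1 ± 2.21 CPM (counts per 1e+06 counts, after TMM scaling; SD, n = 3) in labelled knockout mice with DEN, 14.9 ± 3.83 in wild type with DEN, 11.3 ± 4.17 in labelled knockout without DEN and 13.3 ± 0.345 in wild type without DEN. Reads were thus present under both labels. The labels do not give which part of the gene is deleted, and the knockout label was not checked further. DEN wild-type replicate 2 stood apart on the first principal component (46% of the variance), at -129.4, while the other 11 libraries lay between -13.7 and 31.2. Results of single genes that rest on it are given below with and without it.

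Short stretches of promoter are printed for Fos, Zfp36, Nr4a1 and Atf3, whose highest libraries stood furthest above the next. Promoter windows of 300 bases, mostly upstream of the start, were found in RefSeq (GRCm38.p6) for 8 of the 10 genes. The capitals mark motifs found on either strand. These are the CRE core (TGACG, reading CGTCA on the other strand) bound by CREB and ATF factors, the EGR core (GTGGGCG or GGGGGCG, or their complements), the TATA box (TATAAA), and the CArG box bound by serum response factor. The Fos stretch is chr12:85473750-85473869 (plus strand, 140 to 21 bases before the start). The Zfp36 stretch is chr7:28379269-28379338 (minus strand, 110 to 41 bases before). The Nr4a1 stretch is chr15:101266726-101266815 (plus strand, 120 to 31 bases before a RefSeq start inside the gene). The Atf3 stretch is chr1:191183334-191183413 (minus strand, the last 80 bases before the start).
Fos: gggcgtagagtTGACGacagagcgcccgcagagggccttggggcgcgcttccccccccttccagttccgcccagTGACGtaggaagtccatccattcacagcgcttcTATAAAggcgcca
Zfp36: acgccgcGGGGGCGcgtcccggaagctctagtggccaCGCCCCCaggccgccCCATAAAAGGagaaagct
Nr4a1: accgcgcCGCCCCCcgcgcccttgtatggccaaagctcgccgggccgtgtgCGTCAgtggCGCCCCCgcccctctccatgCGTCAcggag
Atf3: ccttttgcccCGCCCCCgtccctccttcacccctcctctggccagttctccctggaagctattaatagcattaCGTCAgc

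The CRE core was in 5 of the 8 windows (Atf3, Fos, Fosb, Junb and Nr4a1), against 20.8% of 32851 mouse promoter windows of this length. The EGR core was in 5 of 8 (Atf3, Fosb, Jun, Nr4a1 and Zfp36), against 21.8% of all windows. TATAAA was in 2 of 8 (Fos and Junb), against 13.6%, and the CArG box in 1 of 8 (Zfp36), against 1.63%. The Fos TATAAA lay 33 to 28 bases before the start. The Junb match lay at bases 1 to 6 from the start, not upstream of it. The AP-1 site (TGAGTCA or TGACTCA), which FOS and JUN dimers bind, was in 0 of 8, against 5.2%. A match is a match of letters in this window only.

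The levels of the genes differed widely. Per length, in TPM, Zfp36 had the highest median over the 12 libraries at 50.1, followed by Junb at 26.9, Ier2 at 19.5, Jun at 9.29 and Egr1 at 3.78. Ier3 (1.46), Atf3 (1.12), Nr4a1 (1), Fos (0.685) and Fosb (0.08, over the 9 libraries that list it) had low medians. All further levels are in CPM, which compares libraries for 1 gene.

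Fos and Fosb encode the FOS partners of the AP-1 dimer. Fos (chromosome 12, 85473890 to 85477274) had 1.88, 0.762 and 1.03 CPM in labelled knockout mice with DEN and 0.722, 2.01 and 0.929 in wild type with DEN. It had 0.768, 1.70 and 5.66 in labelled knockout without DEN and 1.96, 0.645 and 1.07 in wild type without DEN. All 4 groups overlapped, and labelled knockout replicate 3 without DEN stood 2.82-fold above the next library. Fosb (chromosome 7, 19302696 to 19310118) rested on 17, 7 and 10 counts in labelled knockout with DEN, 9, 16 and 5 in wild type with DEN, and 1, 6 and 2 in wild type without DEN. At these counts it was near the limit of detection in each library listed.

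Jun and Junb encode JUN partners of AP-1, and JUNB can restrain JUN at some promoters. Jun (chromosome 4, 95049036 to 95052222) had 26.7, 20.8 and 20.6 CPM in labelled knockout with DEN, 23.2, 43.6 and 28.7 in wild type with DEN, 18.7, 14.1 and 25.0 in labelled knockout without DEN, and 32.2, 18 and 11.7 in wild type without DEN. The groups overlapped, and the highest value was in DEN wild-type replicate 2. Junb (chromosome 8, 84976909 to 84978748) had 25.8, 20.0 and 24.6 CPM in labelled knockout with DEN and 8.60, 49.2 and 15.8 in wild type with DEN. It had 62.0, 47.8 and 107 in labelled knockout without DEN and 108, 19.1 and 49.9 in wild type without DEN. The labelled knockout mice with DEN all lay below those without DEN, while the wild-type groups overlapped. In the GENCODE M21 models both genes overlap a gene on the opposite strand (Junos for Jun, Prdx2 for Junb). With no strand setting given, reads within the shared stretch cannot be told apart. The length of the shared stretch was not measured.

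Atf3 encodes a CREB-family factor that partners JUN proteins and is induced by the integrated stress response. Atf3 (chromosome 1, 191170296 to 191183333) had 3.82, 1.16 and 1.85 CPM in labelled knockout with DEN and 2.95, 75.8 and 1.47 in wild type with DEN. It had 1.84, 0.867 and 1.95 in labelled knockout without DEN and 3.30, 1.02 and 0.995 in wild type without DEN. Replicate 2 of DEN wild type was 19.8-fold above the next library, and the other 11 libraries overlapped across groups. A small RNA gene, Gm24748, overlaps Atf3 on the opposite strand.

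Egr1 encodes a zinc-finger factor induced through serum response factor, and Nr4a1 an orphan nuclear receptor induced through CREB and MEF2. Egr1 (chromosome 18, 34861207 to 34864956) had 8.53, 3.75 and 9.05 CPM in labelled knockout with DEN, 2.13, 38.7 and 4.26 in wild type with DEN, 10.5, 7.22 and 66.0 in labelled knockout without DEN, and 35.6, 5.57 and 15.4 in wild type without DEN. In every group but the labelled knockout with DEN, 1 mouse held most of the summed signal, and all groups overlapped. Nr4a1 (chromosome 15, 101253902 to 101274795) had 13.9, 1.74 and 4.15 CPM in labelled knockout with DEN and 1.77, 3.18 and 1.57 in wild type with DEN. It had 0.730, 1.84 and 7.76 in labelled knockout without DEN and 1.48, 1.26 and 2.29 in wild type without DEN. Its highest library, labelled knockout replicate 1 with DEN, was 1.78-fold above the next, and the groups overlapped.

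Ier2 encodes a small nuclear early response protein, and Ier3 a stress-inducible regulator of cell survival. Ier2 (chromosome 8, 84661331 to 84662852) had 19.6, 14.7 and 17.3 CPM in labelled knockout with DEN, 12.1, 10.2 and 14.2 in wild type with DEN, 28.5, 34.3 and 41.0 in labelled knockout without DEN, and 37.2, 16.5 and 24.6 in wild type without DEN. Within each genotype label every mouse with DEN lay below every mouse without DEN. Across labels, wild-type replicate 2 without DEN lay among the labelled knockout mice with DEN. Ier3 (chromosome 17, 35821713 to 35822911) had 1.97, 0.884 and 1.24 CPM in labelled knockout with DEN, 0.689, 1.96 and 0.993 in wild type with DEN, 1.65, 0.614 and 1.25 in labelled knockout without DEN, and 0.889, 0.544 and 0.737 in wild type without DEN. Its groups overlapped within a range of low values.

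Zfp36 (chromosome 7, 28376784 to 28379228) encodes tristetraprolin, which binds AU-rich elements. It had 57.9, 74.6 and 55.8 CPM in labelled knockout with DEN, 60.4, 40.7 and 76.0 in wild type with DEN, 52.1, 65.8 and 184 in labelled knockout without DEN, and 88.8, 44.9 and 67.2 in wild type without DEN. Labelled knockout replicate 3 without DEN was 2.08-fold above the next library, and the groups overlapped. An antisense gene, Gm44710, overlaps it.

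**Figure D1:**
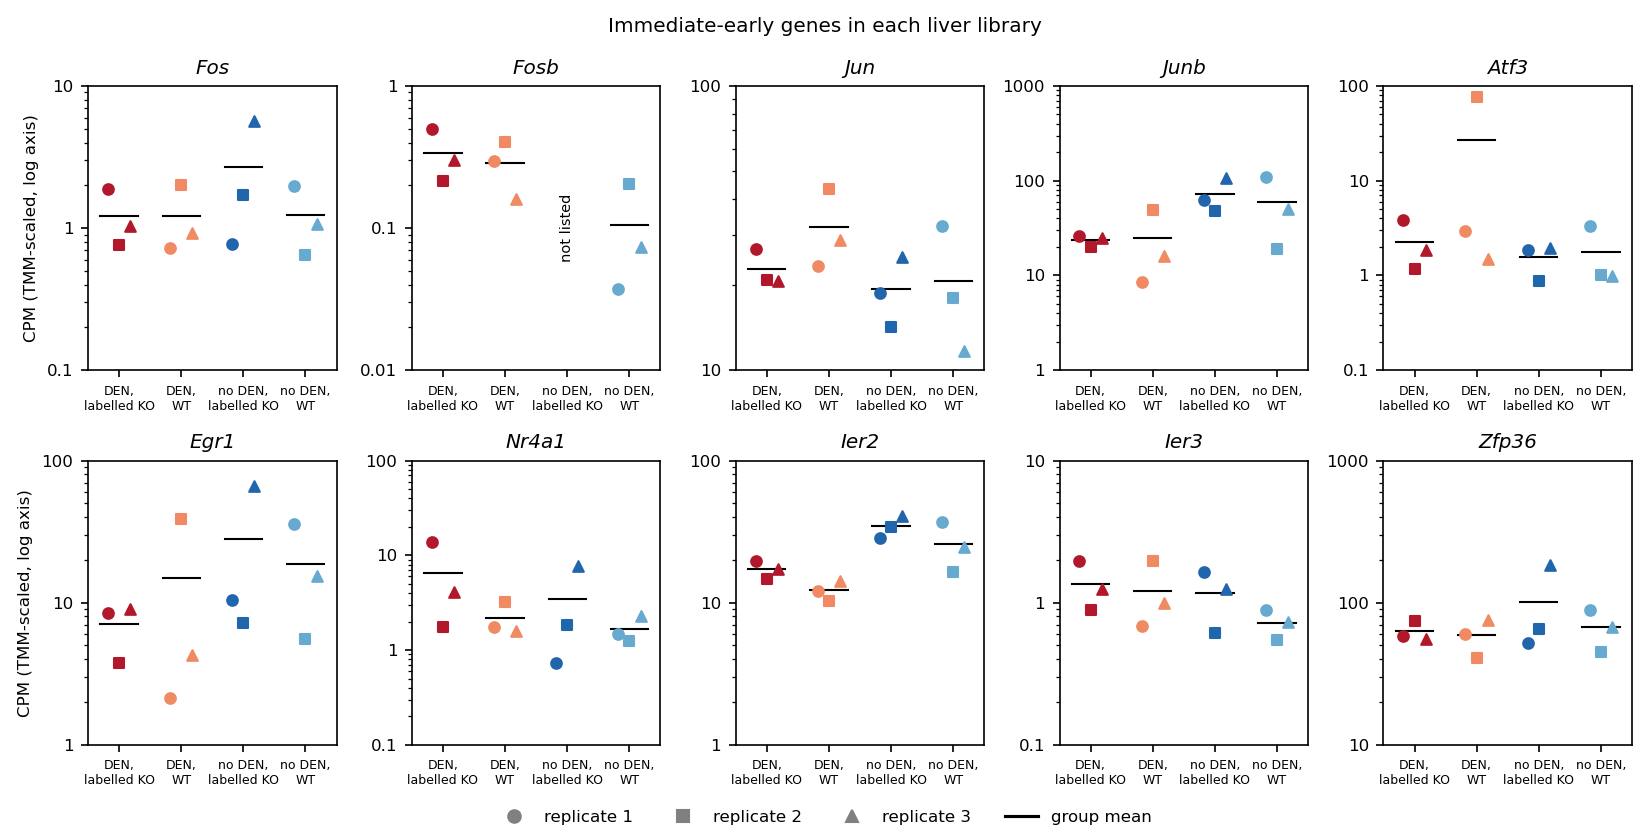
CPM (log axis) of the 10 genes in each library, by group, with the group mean as a bar and the replicate number as the symbol. Ier2 lies lower with DEN under both genotype labels, and Atf3 stands at 75.8 CPM in 1 DEN wild-type library.

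The first comparison sets mice with DEN against mice without it, averaged over both genotype labels. Ier2 fell, and was the only one of the 9 tested genes to pass the threshold of an edgeR adjusted p under 0.05. Its mean was 17.2 ± 2.45 CPM in labelled knockout with DEN and 12.2 ± 2.01 in wild type with DEN, against 34.6 ± 6.26 in labelled knockout without DEN and 26.1 ± 10.5 in wild type without DEN (SD, n = 3 each). The log2 fold change was -1.05 ± 0.19 (SE; edgeR adjusted p = 0.00907). Ier2 passed under all 22 alternatives run, with values between -1.18 and -0.63. Before adjustment 3 of the 9 genes (Ier2, Junb and Atf3) had a p under 0.05, as had 35.9% of all genes. The share of all 12909 genes called was 16.5%, with 8.1% of all genes lower, so 1 of 9 is near that background. With library size alone as the scaling, the median of all genes was higher by 0.272 on the log2 scale and 93.7% of calls were higher, against 50.9% with TMM; Ier2 was then at -0.79. The median log2 fold change was -0.43 over the 9 genes and 0.01 over all genes.

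Junb averaged 23.5 ± 3.06 CPM in labelled knockout with DEN and 24.6 ± 21.7 in wild type with DEN, against 72.3 ± 30.9 in labelled knockout without DEN and 59.1 ± 45.4 in wild type without DEN. Its log2 fold change of -1.44 ± 0.48 missed the threshold (edgeR adjusted p = 0.0615). It passed in 4 of 22 alternatives. Without DEN wild-type replicate 2 it was -1.94 (edgeR adjusted p = 0.0137), and without wild-type replicate 2 of the mice without DEN it was -1.66 (edgeR adjusted p = 0.0362).

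Egr1 had a log2 fold change of -1.15 ± 0.79 (edgeR adjusted p = 0.321), which became -2.26 (edgeR adjusted p = 0.0456) without DEN wild-type replicate 2. Atf3 went the other way, at 2.24 ± 0.88 (edgeR adjusted p = 0.0978). Its value was 0.44 without DEN wild-type replicate 2, and it passed at 2.51 (edgeR adjusted p = 0.0423) without DEN wild-type replicate 3. The other members did not pass. Fos was at -0.57 ± 0.50, Jun at 0.43 ± 0.25, Ier3 at 0.49 ± 0.35, Nr4a1 at 0.66 ± 0.60 and Zfp36 at -0.43 ± 0.31 on the log2 scale, with edgeR adjusted p between 0.240 and 0.454.

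Within the labelled knockout mice, DEN against no DEN gave 0 of 9 calls, and edgeR called 0.194% of all genes. Ier2 was at -1.01 ± 0.27 (edgeR adjusted p = 0.106), Junb at -1.62 ± 0.68 (0.234), Egr1 at -1.97 ± 1.15 (0.385) and Fos at -1.14 ± 0.71 (0.419). Ier2 and Junb had no overlap between the groups, both lower with DEN. That is 2 of 9, and 31.3% of all genes had no overlap, 16.5% of all genes being lower. DESeq2 called 1 of the 9 genes, Ier2 (adjusted p = 0.0163), and 6.83% of all genes. It gave Atf3 no adjusted p in this or any other comparison. At an unadjusted p under 0.05 edgeR listed 2 of the 9 (Ier2 and Junb) and 19% of all genes. Without DEN wild-type replicate 2, Ier2 passed (edgeR adjusted p = 0.0436). That library is in neither group compared here, but leaving it out redid the filter, the scaling, the shared estimate of spread and the adjustment.

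Within the wild-type mice the DEN contrast also gave 0 of 9 calls, against 2.74% of all genes. An unadjusted p under 0.05 was found for 2 of the 9 (Ier2 and Atf3) and 29.7% of all genes. Ier2 was at -1.10 ± 0.27 (edgeR adjusted p = 0.0542) and had no overlap, as had 36% of all genes, 17.6% lower. Ier2 passed in 7 of 23 alternatives, among them leaving out DEN wild-type replicate 3, or labelled knockout replicate 1 or 3 of the mice without DEN. Junb was at -1.27 ± 0.67 (edgeR adjusted p = 0.228) and Jun at 0.63 ± 0.36 (0.255). Atf3 was at 3.92 ± 1.3 (edgeR adjusted p = 0.0904), 0.33 without DEN wild-type replicate 2, and 4.47 (edgeR adjusted p = 0.0424) without DEN wild-type replicate 3. Egr1 was at -0.32 ± 1.11 (edgeR adjusted p = 0.864) and at -2.55 without DEN wild-type replicate 2. The 2 DEN contrasts rest on different mice but on 1 shared estimate of spread.

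**Figure D2:**
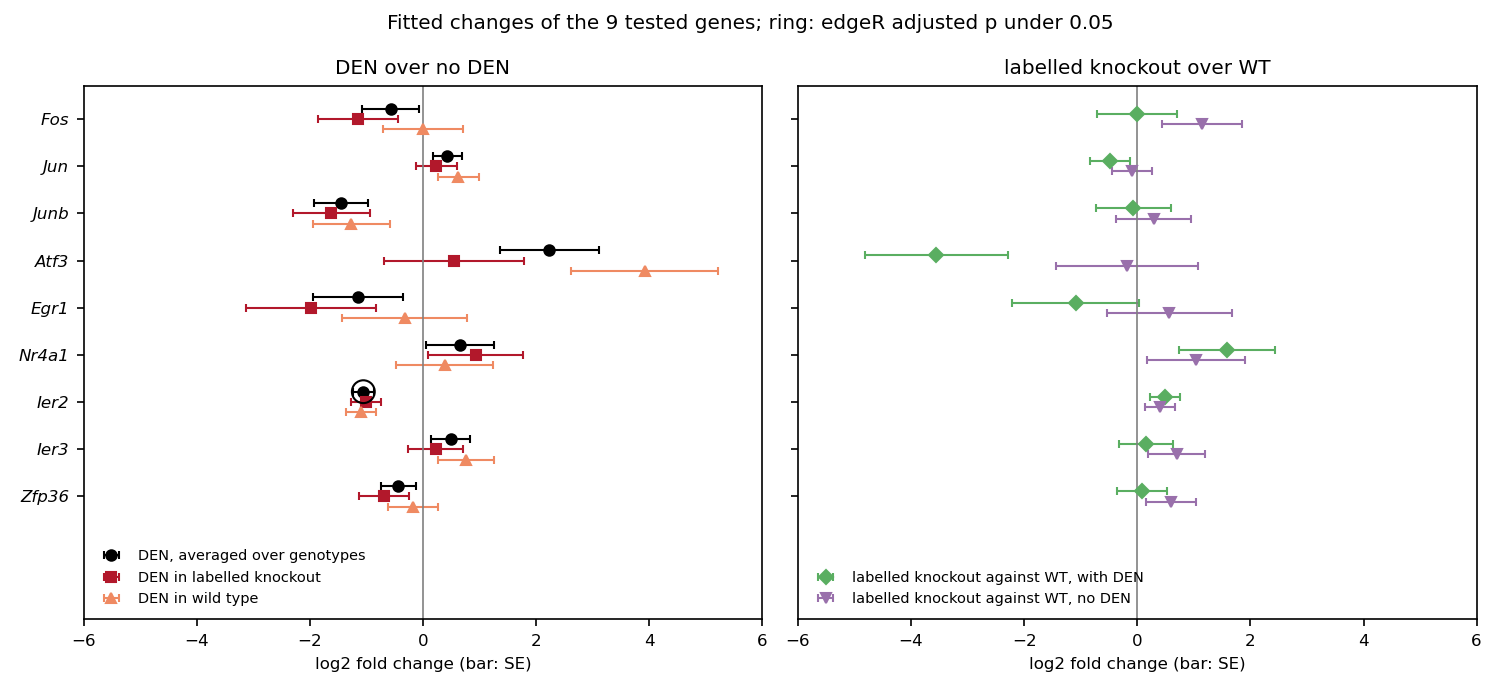
Log2 fold changes (SE bars) of the 9 tested genes for DEN over no DEN (left) and labelled knockout over wild type (right). The ring marks the 1 call, Ier2 at -1.05 averaged over both labels. Atf3 is widest apart between the labels, at 0.55 in labelled knockout and 3.92 in wild type.

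Labelled knockout was set against wild type among mice with DEN. None of the 9 genes passed, and edgeR called 0% of all genes; 1 of the 9 (Atf3) and 10.1% of all genes had an unadjusted p under 0.05, DESeq2 called 1.24% and limma-voom with library quality weights 3.49%. Ier2, at 17.2 ± 2.45 CPM in labelled knockout and 12.2 ± 2.01 in wild type, had a log2 fold change of 0.50 ± 0.27 (edgeR adjusted p = 0.534) with no overlap of libraries. That no-overlap count is 1 of 9, and 19.6% of all genes had no overlap, 8.22% of all being higher. Nr4a1 averaged 6.58 ± 6.41 CPM in labelled knockout and 2.18 ± 0.880 in wild type (1.59 ± 0.85 on the log2 scale, edgeR adjusted p = 0.535; 0.43 without labelled knockout replicate 1). Atf3 averaged 2.28 ± 1.38 CPM in labelled knockout and 26.7 ± 42.5 in wild type (-3.55 ± 1.26, edgeR adjusted p = 0.407), and its log2 fold change was 0.05 without DEN wild-type replicate 2. The same library turned Junb, Egr1, Fos and Zfp36 to the opposite sign when left out, with Junb at 0.95 and Egr1 at 1.16.

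Among mice without DEN, the same contrast of labelled knockout against wild type gave 0 of 9 calls and an edgeR share of 0% of all genes. Before adjustment, 3.7% of all genes and 0 of the 9 had an edgeR p under 0.05, and DESeq2 called 0.0387% of all genes. Fos averaged 2.71 ± 2.60 CPM in labelled knockout and 1.23 ± 0.672 in wild type (1.15 ± 0.71 on the log2 scale, edgeR adjusted p = 0.9999). Zfp36 averaged 100.8 ± 72.7 CPM in labelled knockout and 67 ± 21.9 in wild type (0.59 ± 0.44, edgeR adjusted p = 0.9999). Without labelled knockout replicate 3 they were at 0.01 and -0.19. The interaction of knockout label and DEN was also called for 0 of 9 and for 0% of all genes; 0 of the 9 and 6.52% of all genes had an unadjusted p under 0.05, and DESeq2 called 0.101%. Ier2 had an interaction of 0.09 ± 0.37 (edgeR adjusted p = 0.952) and Atf3 of -3.37 ± 1.74 (0.735) on the log2 scale. Atf3 was at 0.23 without DEN wild-type replicate 2.

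Each library was ranked from 1 (lowest) to 12 for each gene. Labelled knockout replicate 3 without DEN was among the highest 3 for 6 of 9 genes, against 30.2% of all genes, and wild-type replicate 1 without DEN for 7 of 9, against 26.9%. DEN wild-type replicate 2 was among them for 5 of 9, against 39.9% of all genes, and labelled knockout replicate 1 with DEN for 3 of 9, against 23.9%. Wild-type replicate 2 without DEN was among the lowest 3 for 7 of 9, against 22.2%. Median ranks were 9, 4 and 6 in labelled knockout with DEN, 3, 11 and 5 in wild type with DEN, 6, 7 and 11 in labelled knockout without DEN, and 10, 3 and 8 in wild type without DEN. No group held the high ranks in all 3 of its libraries. The peaks fell on different genes. Labelled knockout replicate 3 without DEN was highest for Fos, Egr1, Ier2 and Zfp36, 4 of 9, against 12.1% of all genes. DEN wild-type replicate 2 was highest for Atf3 and Jun and lowest for Ier2 and Zfp36, and it was the highest library for 26.2% of all genes. These are ranks of TMM-scaled CPM, and this library had the highest TMM factor of the 12, at 1.284. In TPM it was not the lowest for either gene. Ier2 had 14.51 TPM there and 12.21 in DEN wild-type replicate 1. Zfp36 had 48.33 TPM there and 32.59 in labelled knockout replicate 1 without DEN.

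**Figure D3:**
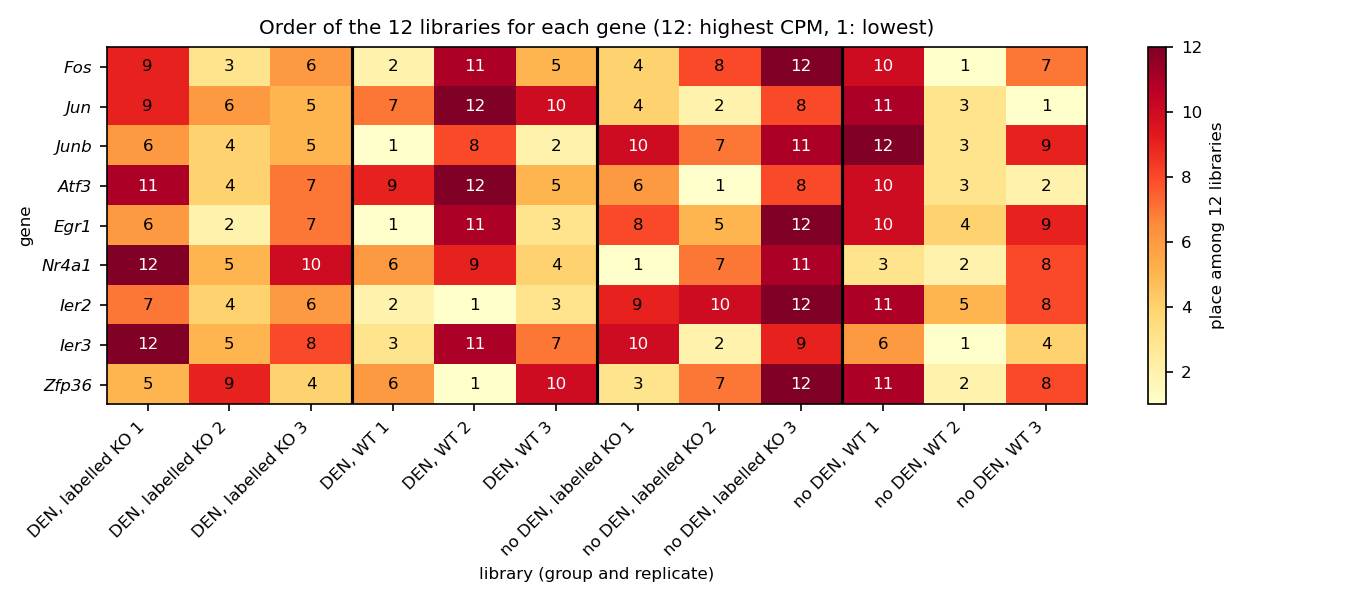
Rank of each library for each of the 9 genes (12 is the highest CPM), with groups divided by vertical lines. Wild-type replicate 2 without DEN is among the lowest 3 for 7 of 9 genes. In the left 6 columns the Ier2 row holds ranks 7, 4, 6, 2, 1 and 3, and wild-type replicate 2 without DEN holds 5.

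The spread among mice of 1 group was measured as the SD of log2 CPM around the group means. It was 1.66 for Atf3, 1.57 for Egr1, 1.17 for Nr4a1, 0.946 for Junb and 0.931 for Fos, at percentiles 99.2, 99, 97.1, 94.3 and 94 of all genes tested in the same order. Zfp36 (0.601), Ier3 (0.593) and Jun (0.491) lay at percentiles 82.4, 82 and 75.1. Ier2, at 0.358 and percentile 60.6, varied least. These percentiles are over genes of every level. Fos (0.44), Ier3 (0.13), Atf3 (1.29) and Nr4a1 (1.32) had a low mean log2 CPM, against a median of 3.71 over all genes. The square root of the edgeR dispersion, which estimates variation beyond counting noise, had a median of 0.552 over the 9 genes and 0.222 over all genes. The median SD was 0.931 over the 9 genes and 0.292 over all genes. Without DEN wild-type replicate 2 these medians were 0.784 and 0.227, with Atf3 at 0.799 and Egr1 at 1.24. Handling, time of day and feeding of the single mice are not in the labels, and their part in this spread was not tested.

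**Figure D4:**
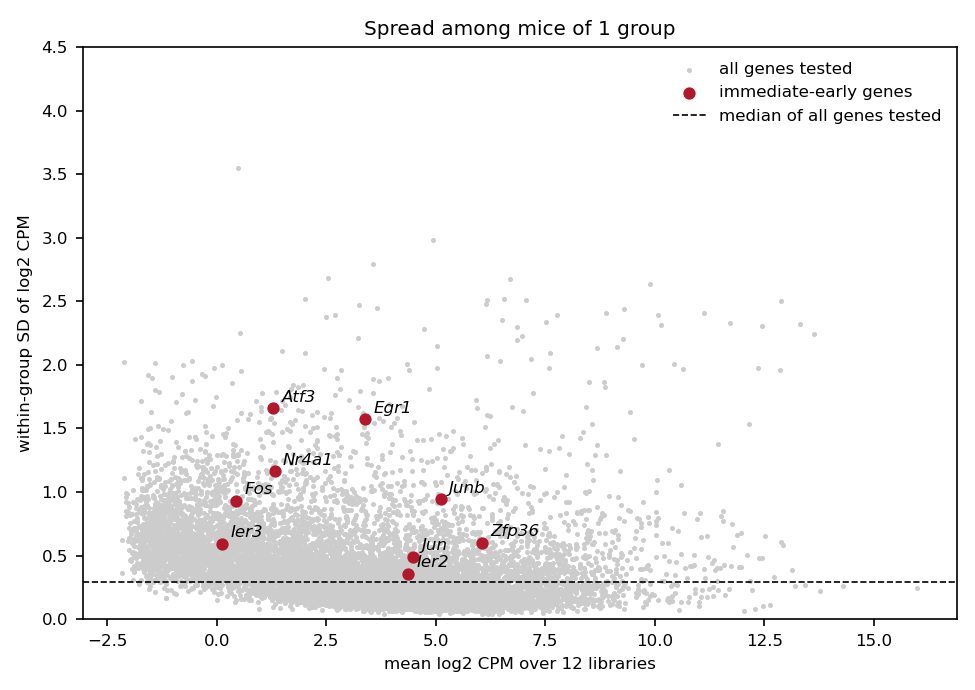
Within-group SD of log2 CPM against mean log2 CPM for all 12909 genes tested (grey) and the 9 immediate-early genes (red). All 9 lie above the median of all genes, 0.292 (dashed line), with Atf3 at 1.66 and Ier2 at 0.358.

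Likeness between genes was measured as the mean absolute difference in rank over the 12 libraries, where 0 is the same order. Its median over 11573 genes with a mean of at least 1 CPM was 4.0 for most members. Among the members, Junb and Egr1 were closest at 1.33, then Jun and Atf3 at 1.5, and Fos with Egr1 and Junb with Ier2 at 1.67. The pairs furthest apart were Ier3 and Zfp36 at 4.67, then Atf3 with Zfp36 and Jun with Ier2 at 4.5. The genes nearest to Atf3 were Dusp8 (1), a MAP kinase phosphatase, Rhob (1), an early response GTPase, and Ets2 (1.17). Cd34 and Ddit3 (1.33 each) followed Sema3f (1) for Jun. Fos was nearest to Ctdsp2 and Stk25 (1 each), Egr1 to Tctn1 and Zfp865 (1 each), and Junb to Eppk1 and Sfswap (0.667 each). Ier2 was nearest to Maf1, a repressor of RNA polymerase III, and Pigyl (0.667 each), Ier3 to Nrg1 (1) and Ier5 (1.17), Nr4a1 to Cdk5rap2 and Plxna3 (1 each), and Zfp36 to Pitpnb (0.833). These are the closest of 11573 genes for each member, so small values were selected for.

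The pathway around the 10 genes was described by 7 lists, for DEN averaged over both labels; of all genes, 8.4% rose and 8.1% fell. Of 24 upstream kinases and factors, 3 rose and 1 fell (median 0.14 on the log2 scale). Elk3, a ternary complex partner of serum response factor, rose by 1.02 ± 0.18 (edgeR adjusted p = 0.00876) and kept its call in all 22 alternatives. Rps6ka1 (0.72 ± 0.17), a ribosomal S6 kinase, and Mapk8 (0.27 ± 0.08), which encodes the JUN kinase JNK1, also rose, and Map2k2 (-0.34 ± 0.10), a MAP kinase kinase, fell. Rps6ka1 lost its call without wild-type replicate 1 (0.68) or 3 (0.74) of the mice without DEN. Mapk8 lost its call on leaving out any of the 12 libraries (0.23 to 0.30), and Map2k2 on leaving out any but DEN wild-type replicates 2 and 3 and wild-type replicate 2 without DEN (-0.36 to -0.31); with TPM values Map2k2 was at 0.05. The all-gene median was 0.01.

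Of 32 other early response genes tested (37 in the list), 1 rose and 2 fell (median -0.23). Gadd45g, a growth arrest gene, fell by 2.21 ± 0.57 and Nfil3, a circadian and cytokine-responsive repressor, fell by 0.88 ± 0.23 (edgeR adjusted p = 0.0282 each). The connective tissue growth factor gene Ccn2 rose by 1.07 ± 0.28 (edgeR adjusted p = 0.0312). Of 14 feedback inhibitors tested (15 in the list), 1 fell and none rose (median 0.16). It was Nab2, which binds and represses EGR1, at -1.08 ± 0.33 (edgeR adjusted p = 0.0485). Nab2 had 9.79, 8.93 and 12.2 CPM in labelled knockout with DEN and 7.19, 28.1 and 8.17 in wild type with DEN, against 21.6, 25.0 and 34.8 in labelled knockout without DEN and 30.3, 16.7 and 26.5 in wild type without DEN. Only replicate 2 of DEN wild type reached the values without DEN, and without it Nab2 was at -1.53 (edgeR adjusted p = 0.00124). Leaving out any other library but wild-type replicate 2 without DEN ended its call (-1.15 to -0.92). Gadd45g lost its call without any 1 of the labelled knockout mice with DEN, labelled knockout replicate 2 or 3 without DEN, or wild-type replicate 3 without DEN (-2.29 to -1.995). Nfil3 lost it without any 1 of the labelled knockout mice with DEN, labelled knockout replicate 3 without DEN, or wild-type replicate 1 or 3 without DEN (-0.91 to -0.73). Ccn2 lost it without labelled knockout replicate 1 or 2 with DEN, or wild-type replicate 1 or 3 without DEN (0.96 to 1.11).

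Among 14 tested genes reported as AP-1 or EGR1 targets (17 in the list), 2 rose and 1 fell (median 0.77). DEN wild-type replicate 2 was the highest of the 12 libraries for 7 of the 14 (50%), and for 26.2% of all genes. Plau, the urokinase gene, rose by 2.03 ± 0.40 (edgeR adjusted p = 0.0123), and Bcl6, a transcriptional repressor, fell by 2.12 ± 0.33 (0.00662). Both kept their calls in all 22 alternatives. The hyaluronan receptor gene Cd44 rose by 1.58 ± 0.48 (edgeR adjusted p = 0.0478) but lost its call on leaving out any library except labelled knockout replicates 2 and 3 with DEN, with 0.80 without labelled knockout replicate 1 with DEN. Bcl6 had 13.9, 9.51 and 20.0 CPM in labelled knockout with DEN and 15.8, 4.54 and 9.97 in wild type with DEN, against 69.0, 36.0 and 84.9 in labelled knockout without DEN and 45.1, 32.3 and 53.4 in wild type without DEN, with no overlap, as had 9.82% of all genes.

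The integrated stress response list, which surrounds Atf3, had 2 of 15 genes higher and 2 lower (median 0.12, and -0.12 without DEN wild-type replicate 2). Chac1, which degrades glutathione, fell by 1.11 ± 0.19 (edgeR adjusted p = 0.00876), as did Cth, an enzyme of cysteine synthesis, by 1.10 ± 0.25 (0.0197). Sesn2, a stress-induced sestrin gene, rose by 0.74 ± 0.19 (edgeR adjusted p = 0.0259). Ddit3, which encodes the stress factor CHOP, rose by 1.98 ± 0.60 (edgeR adjusted p = 0.0469), and by 0.86 (0.0179) without DEN wild-type replicate 2. Ddit3 had 229 CPM in that library, against 3.63 to 21.6 in the other 11, and Nupr1, a stress-induced nuclear protein gene, had 82.2 against 0.273 to 1. This library was the highest of the 12 for 9 of the 15 genes (60%), and for 26.2% of all genes. The feedback phosphatase genes Dusp4 (10.8 CPM) and Dusp5 (6.52), the growth factor gene Hbegf (8.45) and the urokinase receptor gene Plaur (5.01) were also highest there, while Socs3 was lowest there at 3.99 CPM. Ddit3 lost its call on leaving out any library outside DEN wild type. Cth lost it without labelled knockout replicate 1 (-1.09) or 2 (-1.06) with DEN, or wild-type replicate 3 without DEN (-1.03). Sesn2 lost it without labelled knockout replicate 2 or 3 with DEN or without DEN, or wild-type replicate 3 without DEN (0.71 to 0.75).

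**Figure D5:**
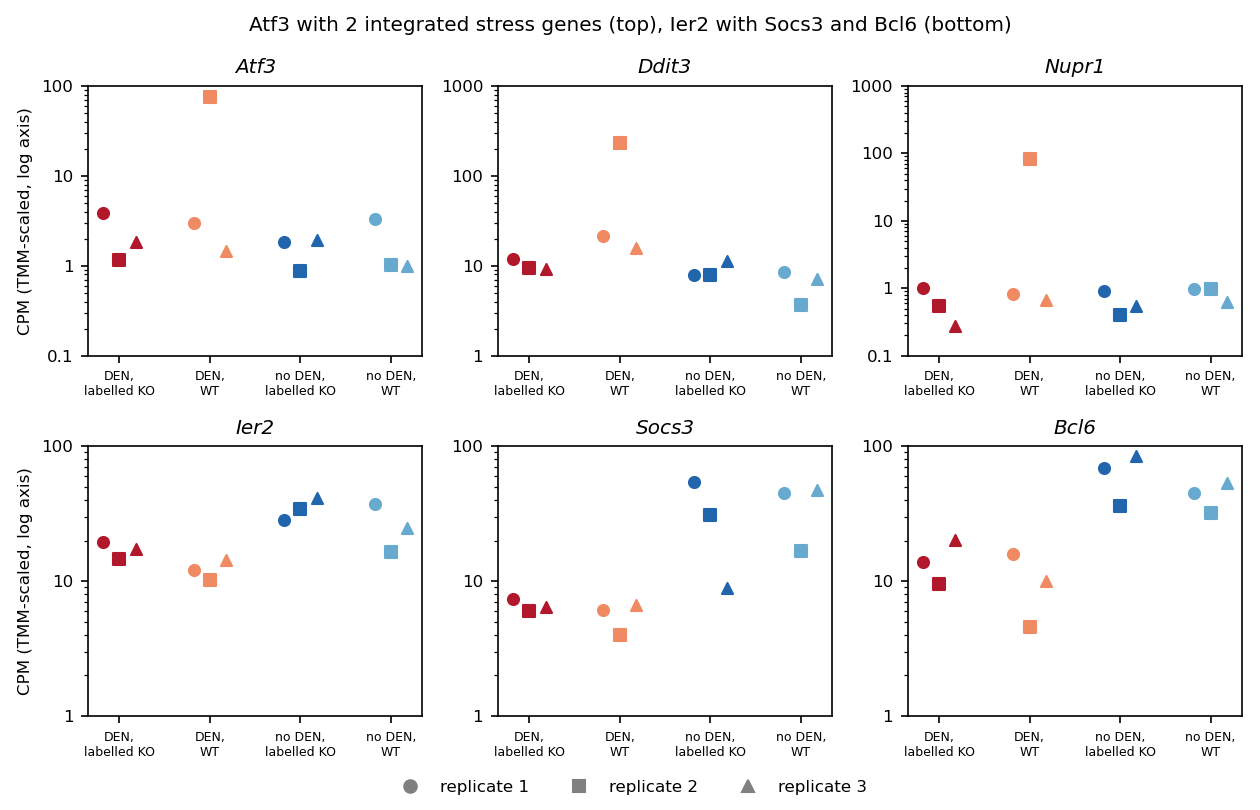
CPM (log axis) per library for Atf3 with Ddit3 and Nupr1 (top) and Ier2 with Socs3 and Bcl6 (bottom). The top row shows replicate 2 of DEN wild type alone at 75.8, 229 and 82.2 CPM; the bottom row shows lower values with DEN under both labels.

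Of 15 cytosolic heat-shock genes, 6 rose and none fell (median 0.31), among them the co-chaperone genes Dnajb1 (1.13 ± 0.13, edgeR adjusted p = 0.00204) and Dnajb4 (0.82 ± 0.14, edgeR adjusted p = 0.0086) and the inducible chaperone gene Hspa1b (2.79 ± 0.40, edgeR adjusted p = 0.00597), whose reads can be split with Hspa1a. Leaving out each library gave 4 to 7 higher calls, 5 of them without DEN wild-type replicate 1. That library was the highest of the 12 for 12 of the 15 genes (80%), against 6.46% of all genes. Within the labels, DEN gave 0 calls in labelled knockout (median 0.11), where edgeR called 0.194% of all genes. It gave 6 higher calls in wild type (median 0.66), where edgeR called 2.74% of all genes. An unadjusted edgeR p under 0.05 was found for 6 of 15 in labelled knockout (19% of all genes). In wild type it was found for 8 of 15 (29.7%). Without overlap of libraries, 4 were higher (Hspa1a, Dnajb1, Dnajb4 and Hspa1b) and 2 lower in labelled knockout. In wild type 8 were higher and 0 lower. The wild-type calls numbered 1 without DEN wild-type replicate 1 and 0 without wild-type replicate 3 of the mice without DEN, and 0 to 7 over all libraries left out. The interaction was called for 0 of 15.

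For labelled knockout against wild type with DEN, edgeR called none of the genes in the 7 lists. All 15 heat-shock genes had log2 fold changes below 0 (median -0.95 on the log2 scale). Of the 15, 12 had an unadjusted p under 0.05, against 10.1% of all genes, and 12 had no overlap and were lower, against 11.4% of all genes. The list was written with earlier results of these data known, so these shares are a description and not a test. Hspa4l, an HSP110-family chaperone gene, had 15.1, 14.5 and 12.6 CPM in labelled knockout with DEN and 38.2, 31.8 and 29.6 in wild type with DEN (-1.24 ± 0.18, edgeR adjusted p = 0.0837). Hspb1, which encodes a small heat-shock protein, had 28.3, 35.2 and 26.1 CPM in labelled knockout with DEN and 101.8, 89.5 and 92.4 in wild type with DEN (-1.66 ± 0.27, edgeR adjusted p = 0.135). For both genes the groups did not overlap. Leaving out each library kept all 15 values below 0, with medians of -1.03 to -0.77. The median of -0.77 was without DEN wild-type replicate 1.

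Of 14 cytokine and NF-kB early genes tested (19 in the list), 2 rose and 2 fell (median 0.02). The chemokine gene Ccl2 rose by 1.98 ± 0.39 (edgeR adjusted p = 0.0125) and Tnfaip3, an NF-kB inhibitor, by 1.46 ± 0.39 (0.0318), while Cxcl1, a neutrophil chemokine gene, fell by 3.04 ± 0.78 (0.0287). Socs3 is a cytokine-induced inhibitor. It had 7.38, 5.97 and 6.39 CPM in labelled knockout with DEN and 6.07, 3.99 and 6.70 in wild type with DEN, against 54.8, 31.1 and 8.90 in labelled knockout without DEN and 45.1, 16.8 and 47.3 in wild type without DEN, with no overlap. It fell by 2.48 ± 0.41 (edgeR adjusted p = 0.00795), and its call held in all 22 alternatives. Tnfaip3 lost its call without labelled knockout replicate 1 with DEN (1.13), labelled knockout replicate 1 or 2 without DEN, or any wild-type mouse without DEN (1.38 to 1.49). Cxcl1 lost it without any labelled knockout mouse with DEN, DEN wild-type replicate 1, or wild-type replicate 1 (-2.14) or 3 without DEN.

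Markers of some liver cell types moved with DEN, averaged over both labels, beside the fall of Ier2. Of all genes, 8.4% rose and 8.1% fell. The summed CPM of 8 endothelial markers was 217 to 238 in labelled knockout with DEN and 247 to 261 in wild type with DEN, against 75.6 to 118 in labelled knockout without DEN and 113 to 143 in wild type without DEN, and 7 of the 8 rose. For 8 Kupffer cell markers the sums were 191 to 922 in labelled knockout with DEN and 111 to 333 in wild type with DEN, against 94.7 to 171 in labelled knockout without DEN and 51.3 to 168 in wild type without DEN, and 4 of the 8 rose. For 8 hepatocyte markers the sums were 87590 to 94810 in labelled knockout with DEN and 88850 to 101500 in wild type with DEN, against 91190 to 142900 in labelled knockout without DEN and 112200 to 129400 in wild type without DEN, and 1 of 8 fell. Of 8 stellate cell markers, 2 rose, and of 6 cholangiocyte markers tested (8 in the list) 0 rose or fell. DEN wild-type replicate 2 had the highest sums for both. Its stellate cell sum was 324.3 CPM, against 64.77 to 221.5 in the other 11 libraries. Its cholangiocyte sum was 180.5 CPM, against 28.19 to 69.04. Labelled knockout replicate 1 with DEN was the highest library for Nr4a1. For Ier3 (1.97 against 1.96 CPM) and Fosb (17 against 16 counts) it barely exceeded DEN wild-type replicate 2, which was higher in TPM. Labelled knockout replicate 1 with DEN also had the highest sums for Kupffer cell (922 CPM), neutrophil (20.3) and lymphocyte (32.2) markers. In the other 11 libraries these sums were 51.3 to 333, 2.62 to 11.4 and 1.46 to 4.26 CPM in that order. For averaged DEN, edgeR called 0 of 4 neutrophil, 0 of 5 lymphocyte and 0 of 6 red blood cell markers tested. All tables listed 5 of 8 neutrophil and 6 of 8 lymphocyte markers, and the defining genes Ly6g and Trac were listed in no table. The part of cell make-up in the immediate-early results was not tested.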

How the data were processed

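Members and gene lists were chosen with earlier results of these data known. The authors deposited 4 tables, 1 per group, giving each library a read count and a TPM per gene, per the file headers. The deposited counts are expected counts, since 6.58% to 7.39% of values per library are not whole, and were rounded; the authors' TPM values were used for levels per length and for an alternative with a pseudocount of 0.1. HISAT2 2.2.1, Bowtie2 2.3.4.3, RSEM 1.3.1, DESeq2 1.4.5 and GRCm38.p6 are named in the submitters' processing notes, without their roles or a strand setting. A table holds only genes with a TPM of at least 0.01, so a missing gene is not a measured 0. Of 14944 genes, 13371 were in all 4 tables, and filterByExpr left 12909. RefSeq identifiers matched 14908.

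An edgeR 4.0.16 quasi-likelihood model (R 4.3.3, TMM, 1 coefficient per group, 8 residual degrees of freedom) was fitted to all 12 libraries. The p-values were adjusted by Benjamini-Hochberg over all genes tested, with 0.05 as the threshold. CPM is per 1e+06 counts, and log2 CPM used a prior count of 2. Libraries of a group differed beyond sampling noise, with a chi-square of 27.4 to 764 per degree of freedom. The script was tested on simulated data. Named genes were the members, Otud3, per list up to 4 genes with the smallest p for DEN and up to 2 for knockout with DEN, and the 3 nearest genes in rank order per member. Nearest genes and list genes were named in part. Alternatives used DESeq2 1.42.0, limma 3.58.1 (voom), other scalings and filters, missing genes set to 0, a replicate block, only the groups compared, and leaving out each library.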

Additional observations from a re-analysis of the deposited data

How the results depend on the processing

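Ier2 kept its fall with DEN, averaged over both labels, in all 22 alternatives (adjusted p 1.46e-05 to 0.0301). The cause of the changes below was not tested. For averaged DEN, the counts of genes called (2131, and 1 of 9 members) were 3232 and 2 with DESeq2, 5464 and 4 with limma-voom and library quality weights, 4452 and 2 with limma on log2 TPM, and 3856 genes with library size only; leaving out each library gave 656 to 3046 genes and 1 to 3 members. For DEN in labelled knockout (25 and 0), they were 882 and 1 with DESeq2, 2347 and 2 with quality weights, and 337, 83, 691 and 53 genes with library size only, missing genes at 0, TPM and only the groups compared; leaving out each library gave 0 to 912 genes and 0 to 1 members. For DEN in wild type (354 and 0), they were 1953 and 1 with DESeq2, 4054 and 3 with quality weights, 566 and 1 with missing genes at 0, and 1379, 824 and 0 genes with library size only, TPM and only the groups compared; leaving out each library gave 0 to 1038 genes and 0 to 2 members. For knockout with DEN (0 genes), DESeq2 called 160, quality weights 451 and missing genes at 0 gave 23. For knockout without DEN (0 genes), DESeq2 called 5 and missing genes at 0 gave 2. For the interaction (0 genes), DESeq2 called 13, quality weights 1 and missing genes at 0 gave 11.

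With a replicate block, 1 member passed for DEN in wild type, Ier2 at -1.07 (adjusted p = 0.0498). In the labels, the same-numbered mice share only a number. Over 18 pairs their deviations correlated between -0.19 and 0.22, and 4 were over 0.1. Summed red blood cell markers were highest in replicate 1 and lowest in replicate 2 of every group. These were 806.5 and 323.9 CPM in labelled knockout with DEN and 593.3 and 216.4 in wild type with DEN. They were 1003 and 371.3 in labelled knockout without DEN and 949.8 and 412.4 in wild type without DEN. Whether same-numbered mice were handled together was not tested.

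Signs turned as follows, all log2 fold changes and none of a called member. For averaged DEN, Zfp36 was 0.069 and Map2k2, called lower, 0.046 with TPM. For DEN in wild type, Fos was -0.014 with DESeq2, -0.429 with quality weights, -0.007 with RLE and -0.001 with no filter; Nr4a1 was -0.106 with quality weights; Egr1 was 0.123 and Zfp36 0.06 with library size only, and Zfp36 0.198 with TPM. For knockout with DEN, Fos was 0.017 with DESeq2, 0.001 with voom, 0.207 with quality weights, 0.013 with RLE and 0.001 with no filter; Junb was 0.284 with voom, 0.923 with quality weights and 0.213 with TPM; Egr1 was 0.813 with quality weights. With quality weights, Egr1 was -0.647 for knockout without DEN, and the interactions of Junb, Egr1, Ier2 and Ier3 were 0.801, 1.46, -0.148 and 0.373.

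Leaving out each library in turn gave these ranges across 0. For DEN in labelled knockout they were -0.045 to 0.867 for Atf3, -0.138 to 0.548 for Ier3, -0.227 to 2.346 for Nr4a1 and -0.997 to 0.088 for Zfp36. For DEN in wild type they were -0.56 to 0.515 for Fos, -2.553 to 0.519 for Egr1, 0 to 0.669 for Nr4a1 and -0.409 to 0.072 for Zfp36. For knockout with DEN they were -0.452 to 0.578 for Fos, -0.449 to 0.953 for Junb, -1.573 to 1.163 for Egr1, -4.15 to 0.053 for Atf3, -0.198 to 0.707 for Ier3 and -0.111 to 0.313 for Zfp36. For knockout without DEN they were -0.38 to 0.38 for Jun, -0.132 to 1.066 for Junb, -1.091 to 1.41 for Egr1, -0.47 to 0.621 for Atf3, -0.376 to 1.518 for Nr4a1 and -0.185 to 0.901 for Zfp36. For the interaction they were -1.131 to 0.655 for Junb, -2.493 to 0.591 for Egr1, -4.17 to 0.23 for Atf3, -0.256 to 0.334 for Ier2, -0.891 to 0.005 for Ier3, -0.609 to 1.966 for Nr4a1 and -0.813 to 0.272 for Zfp36. Depth limited Fosb, with 1 to 17 counts per library listed.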
